A study of Mus musculus with 33 samples.

Results

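Srgap1, Sh3kbp1, Otogl, Lrrk1, Sh3d19 and Aldh3b1 are 6 of the 21631 protein-coding mouse genes on chromosomes 1 to 19 and X, and they hold some of the strongest HSF1 peaks found inside genes and away from gene ends in heat shocked fibroblasts. They were chosen by the wild type peak lists themselves, from the top-ranked regions inside genes. Their wild type strength is therefore a description with no test, while the knockout and SRF lists played no part in the choice. All peaks with a summit in the gene or within 10 kb of it were counted.

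The series measured chromatin immunoprecipitation sequencing (ChIP-seq) and nascent RNA (PRO-seq) in cultured mouse fibroblasts of embryos, on the strain background 129Sv.BALB/c. Of its 33 samples, 15 had a peak list, 12 were PRO-seq libraries and 6 were IgG or input libraries, and the last 2 kinds were not analysed here. The lists fall into 3 sets: 6 of HSF1-/- fibroblasts, 6 of wild type fibroblasts, and 3 of wild type fibroblasts with an antibody against SRF (D71A9), a factor of actin and early response genes. The HSF1-/- and the wild type sets each hold 1 list before heat shock, 1 after 12 min and 1 after 60 min, for each of the antibodies CS (from Cell Signaling) and MM (from the Morimoto laboratory). With 1 list per condition there is no replicate error, and no condition was tested against another. The knockout libraries held 5.18 to 15.6 M tags (M for mega, as in megabases, of sequenced fragment ends kept after duplicates were removed), the wild type libraries 14.0 to 26.3 M, and the SRF libraries 0.751 to 1.55 M.

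HSF1 is the transcription factor that switches on chaperone genes when proteins unfold in heat. It binds heat shock elements, which are runs of the unit GAA and its reverse complement TTC in alternation, and it is best known for binding promoters. Many transcription factors also bind inside introns or far from any promoter, where a site may belong to an enhancer, to an unannotated start or to no known function. The 6 proteins are known for different processes. Srgap1 is a GTPase-activating protein that links Slit and Robo guidance signals to the cytoskeleton. Sh3kbp1, also called CIN85, is an adaptor that joins the ubiquitin ligase Cbl to endocytosis of receptors. Otogl, otogelin-like, is a secreted protein of the acellular membranes of the inner ear. Lrrk1 is a kinase with leucine-rich repeats that acts on Rab proteins and is a relative of Lrrk2. Sh3d19 is an SH3 domain adaptor that binds ADAM proteases, and Aldh3b1 is an aldehyde dehydrogenase that oxidizes aldehydes from lipids.

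In mm10 coordinates, 5 of the genes are long. Sh3kbp1 lies on chrX:159626892-159975920 and spans 349 kb. Srgap1 lies on chr10:121780991-122047911 and spans 267 kb. Sh3d19 (chr3:85970805-86130526) spans 160 kb, Otogl (chr10:107760530-107912379) 152 kb and Lrrk1 (chr7:66258745-66388341) 130 kb. These 5 are longer than 91.9% to 98.0% of protein-coding genes. Aldh3b1 (chr19:3913491-3930898) spans 17.4 kb, close to the median of 17.3 kb. Whether a site lies in an exon or an intron was not analysed here.

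The promoters of these genes bear on how far the sites are from annotated starts. RefSeq (GRCm38.p6, the primary assembly of mm10) gives 8 start windows for 5 of the 6 genes, and none of the 8 overlapped a peak of any list. The share of all windows that overlap a peak was not computed, and the genes were chosen for sites away from gene ends. Nothing is therefore read from this count. The 250 bases before a start are printed for the starts of Sh3kbp1 and Aldh3b1 that lie nearest to their strongest site and, for contrast, for a start near the beginning of Sh3kbp1. Capitals mark a match to GAANNTTC or TTCNNGAA, 2 units of a heat shock element, on either strand (each motif is its own reverse complement).
Sh3kbp1 inner start, chrX:159840218-159840467, plus strand: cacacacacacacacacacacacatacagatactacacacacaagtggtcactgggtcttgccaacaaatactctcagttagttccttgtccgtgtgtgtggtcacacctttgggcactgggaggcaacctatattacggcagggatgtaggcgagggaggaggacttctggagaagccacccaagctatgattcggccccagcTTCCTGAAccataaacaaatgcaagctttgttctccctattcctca
Sh3kbp1 outer start, chrX:159627034-159627283, plus strand: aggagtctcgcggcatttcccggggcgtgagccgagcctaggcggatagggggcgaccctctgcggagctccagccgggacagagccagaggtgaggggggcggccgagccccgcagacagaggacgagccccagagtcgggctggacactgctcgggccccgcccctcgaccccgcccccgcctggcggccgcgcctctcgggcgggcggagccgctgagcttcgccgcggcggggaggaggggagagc
Aldh3b1 start, chr19:3929779-3930028, minus strand: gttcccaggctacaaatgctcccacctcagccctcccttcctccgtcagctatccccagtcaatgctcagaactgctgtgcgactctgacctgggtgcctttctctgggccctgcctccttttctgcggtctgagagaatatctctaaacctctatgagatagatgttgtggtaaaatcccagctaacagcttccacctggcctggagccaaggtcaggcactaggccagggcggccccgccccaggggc
The inner start of Sh3kbp1 holds TTCCTGAA, which begins 46 bases before the start. It was the only match among the 8 windows. A match of 2 units was present in 12.9% of all 32619 RefSeq windows of 250 bases, and one of 3 units (GAANNTTCNNGAA or TTCNNGAANNTTC, which contain the 2-unit match) in 0.469% of them and in none of the 8. Of the 175 windows that held the summit of a wild type region at 60 min, 59.4% had 2 units and 20% had 3.

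In the HSF1-/- cells, 5 of the 6 genes had a peak in at least 1 of the 6 lists, where 48.0% of all protein-coding genes did. Among the 1751 protein-coding genes at least as long as Lrrk1, 75.8% did. The count of members is thus close to that of other long genes and is no result about them. The 18 knockout peaks held 4 to 9 tags each and had scores (minus 10 times the log10 of the p-value of the peak) of at most 72.37. No knockout peak at these genes overlapped another. Knockout peaks were called by the authors without a control library and wild type peaks against IgG, per the file headers, so neither tags nor numbers of peaks can be compared between the genotypes.

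Of the 18 knockout peaks, 1 overlapped a wild type site. It was the CS peak before heat shock at chr7:66365979-66366126 in Lrrk1, with 7 tags, a score of 45.88 and rank 1079 by tags in a list of 7813. Its summit lay 3 bp from the wild type CS summit before heat shock at the same site, where the wild type list gave 99 tags. No other knockout list had a peak there. At the strongest sites of the other 5 genes, the nearest knockout summit of any list was 9193 bp away (Sh3d19), 9356 bp (Aldh3b1), 10646 bp (Srgap1), 150 kb (Sh3kbp1) and 168 kb (Otogl). The share of all wild type regions that a knockout peak overlaps was not computed, nor were such distances for other regions. Nothing is therefore read from this overlap or these distances.

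In wild type cells the 6 genes held 42 peaks at 9 separate sites (overlapping peaks joined). A region shared by CS and MM, meaning a CS and an MM peak of the same time that overlap by at least 1 bp, was present at 4 of the 6 genes before heat shock, where 0.532% of all protein-coding genes had one. At 12 min it was present at 6 of 6 (5.33% of all genes) and at 60 min at 6 of 6 (11.2% of all genes). Among genes at least as long as Lrrk1 the shares were 1.26%, 11.9% and 26.9%. Since these lists chose the members, nothing is read from the difference. By site, 4 were present in all 6 lists (the first sites of Srgap1, Lrrk1, Sh3d19 and Aldh3b1). A further 4 were present in the 12 and 60 min lists of both antibodies and in neither list before heat shock (both sites of Sh3kbp1, the site of Otogl and the second site of Lrrk1). The last was in 1 list alone.

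**Figure D1:**
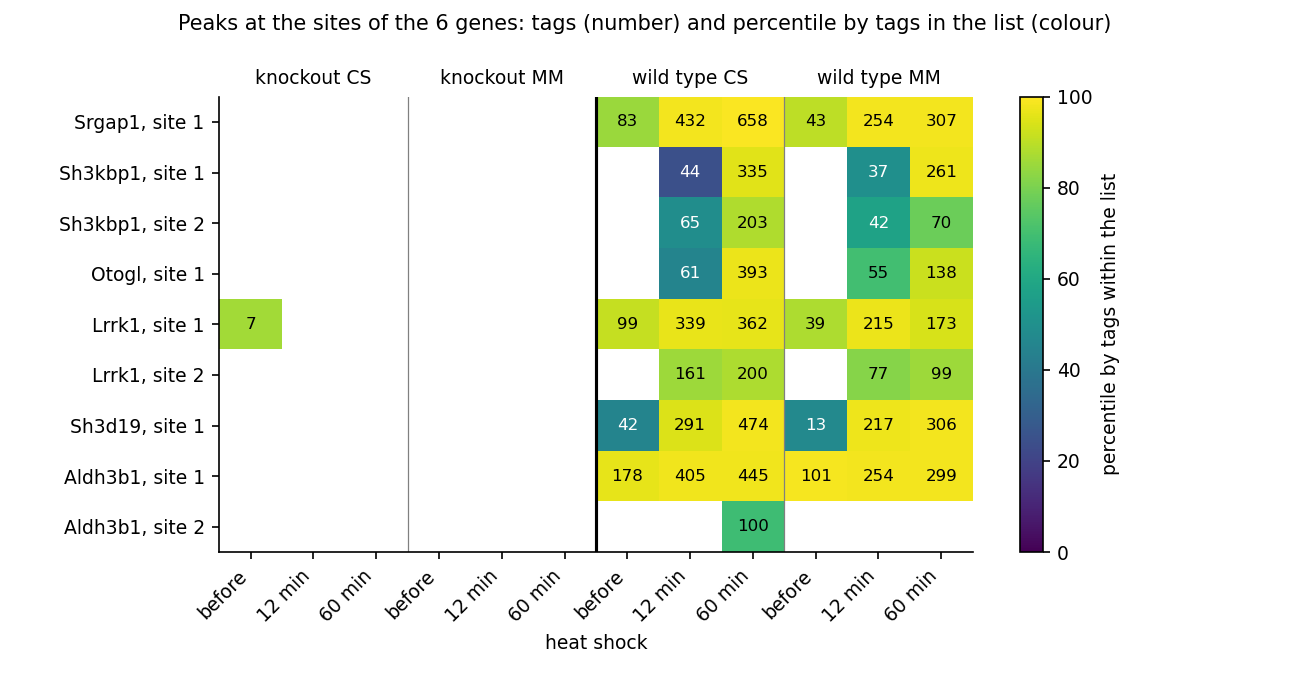
Each row is a site of 1 of the 6 genes and each column a peak list, with the knockout lists left of the wild type lists and times from before heat shock to 60 min. The number is the tags of the strongest peak at the site, the colour its percentile by tags within its list, and a blank means no peak. The knockout columns hold 1 peak, of 7 tags at site 1 of Lrrk1. The wild type columns are filled at 12 and 60 min for 8 of the 9 sites, but wild type peaks defined the sites. Knockout lists were called without a control, so the genotypes cannot be compared here.

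Srgap1, the protein of Slit and Robo signalling, had 5 knockout peaks of 5 or 6 tags, all inside the gene and none at the wild type site. In wild type cells it had 1 site, at chr10:121902213-121905032, whose 60 min CS summit lay 123 kb from the nearer gene end, 143 kb downstream of the annotated start and 53.8% of the way along the gene. The CS peak had 83 tags before heat shock (rank 28 of 180 in its list), 432 at 12 min (rank 31 of 1781) and 658 at 60 min (rank 26 of 4773). The MM peak had 43 tags before heat shock (rank 45 of 449), 254 at 12 min (rank 38 of 1927) and 307 at 60 min (rank 77 of 4614). The site was thus near the top of all 4 lists after heat shock. Its fold enrichment over background, the authors' value for a peak, was 284 (CS) and 241 (MM) at 60 min. A smaller MM peak of 40 tags at 60 min, at chr10:121902213-121903220, lay under the same CS peak, which was 2560 bp long.

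Lrrk1, the kinase, had 4 knockout peaks of 4 to 9 tags, among them the overlapping peak described above. Its first wild type site, at chr7:66365514-66366604, lay 22.2 kb downstream of the annotated start. CS gave 99 tags before heat shock (rank 17), 339 at 12 min (rank 62) and 362 at 60 min (rank 171), and MM gave 39 (rank 57), 215 (rank 54) and 173 (rank 272). The second site, at chr7:66292670-66293859, lay 95.1 kb downstream of the start and 34.5 kb from the other end of the gene. It had 161 CS tags and 77 MM tags at 12 min, and 200 CS tags and 99 MM tags at 60 min. It was not in the lists before heat shock. Gm45989, a long noncoding RNA gene within Lrrk1, ends 4178 bp from this second site.

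Sh3d19, the adaptor of ADAM proteases, had 6 knockout peaks of 4 or 5 tags, of which 3 were inside the gene. In wild type cells it had 1 site, at chr3:86039578-86040980, 69.3 kb downstream of the start and 43.6% along the gene. Before heat shock it was weak, with 42 CS tags (rank 100 of 180) and 13 MM tags (rank 238 of 449). At 12 min it had 291 CS tags (rank 94) and 217 MM tags (rank 52), and at 60 min 474 CS tags (rank 84) and 306 MM tags (rank 79). Its place was below the middle of both lists before heat shock and near the top of all 4 lists after it. The lists differ in length and chose the gene, so no change is read from these ranks.

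Aldh3b1, the lipid aldehyde dehydrogenase, had 2 knockout peaks of 4 and 6 tags, both outside the gene. Its wild type site at chr19:3925719-3927738 had the highest ranks of the 6 genes before heat shock. CS gave 178 tags (rank 8) before, 405 (rank 37) at 12 min and 445 (rank 100) at 60 min. MM gave 101 tags (rank 8) before, 254 (rank 38) at 12 min and 299 (rank 82) at 60 min. Of the 6 genes it is the short one, so this site lay 4458 bp from the nearer gene end and 3338 bp downstream of the start. It also lay 1465 bp from the end of Gm29846 and 5475 bp from that of Gm42059, both long noncoding RNA genes, and 8718 bp from Unc93b1, a carrier of Toll-like receptors. A second site, at chr19:3912190-3914192, was present only in the 60 min CS list. It had 100 tags, a fold of 9.57 and an FDR of 20.48%. Its summit lay 171 bp inside the gene's lower-numbered end and 6529 bp from Tcirg1, a subunit of the vacuolar proton pump. The summit was also 888 bp from the annotated start of Ndufs8, a subunit of respiratory complex I. The region itself reached into Ndufs8, whose higher-numbered end is chr19:3912774.

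Sh3kbp1, the endocytic adaptor, had 1 knockout peak of 6 tags, 60.2 kb from its lower-numbered end and at neither wild type site. In wild type cells it had no peak before heat shock. Its first site, at chrX:159837070-159838186, had 44 CS tags (rank 1345 of 1781) and 37 MM tags (rank 971 of 1927) at 12 min. By tags this was in the lower part of the CS list and near the middle of the MM list. By fold the site ranked higher at 12 min, at 509 in the CS list and 282 in the MM list. At 60 min it had 335 CS tags (rank 210 of 4773) and 261 MM tags (rank 111 of 4614), in the top 5% of both lists. This site is 138 kb from the nearer gene end but 2875 bp upstream of the inner start whose window is printed above. The second site, at chrX:159731002-159732096, was 104 kb downstream of the outer start printed above. It had 65 CS and 42 MM tags at 12 min, and 203 CS and 70 MM tags at 60 min.

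Otogl, the inner ear protein, had no knockout peak in any list and no wild type peak before heat shock. Its single site, at chr10:107899364-107900813, lay 12.5 kb from the nearer gene end. It had 61 CS tags (rank 980) and 55 MM tags (rank 584) at 12 min, and 393 CS tags (rank 142) and 138 MM tags (rank 375) at 60 min. Its rank by tags was below the middle of the 12 min CS list, above the middle of the 12 min MM list and nearer the top of both 60 min lists. By fold it ranked higher at 12 min, at 315 in the CS list and 265 in the MM list. As at Sh3kbp1, the lists differ in length and no change is read from the ranks.

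**Figure D2:**
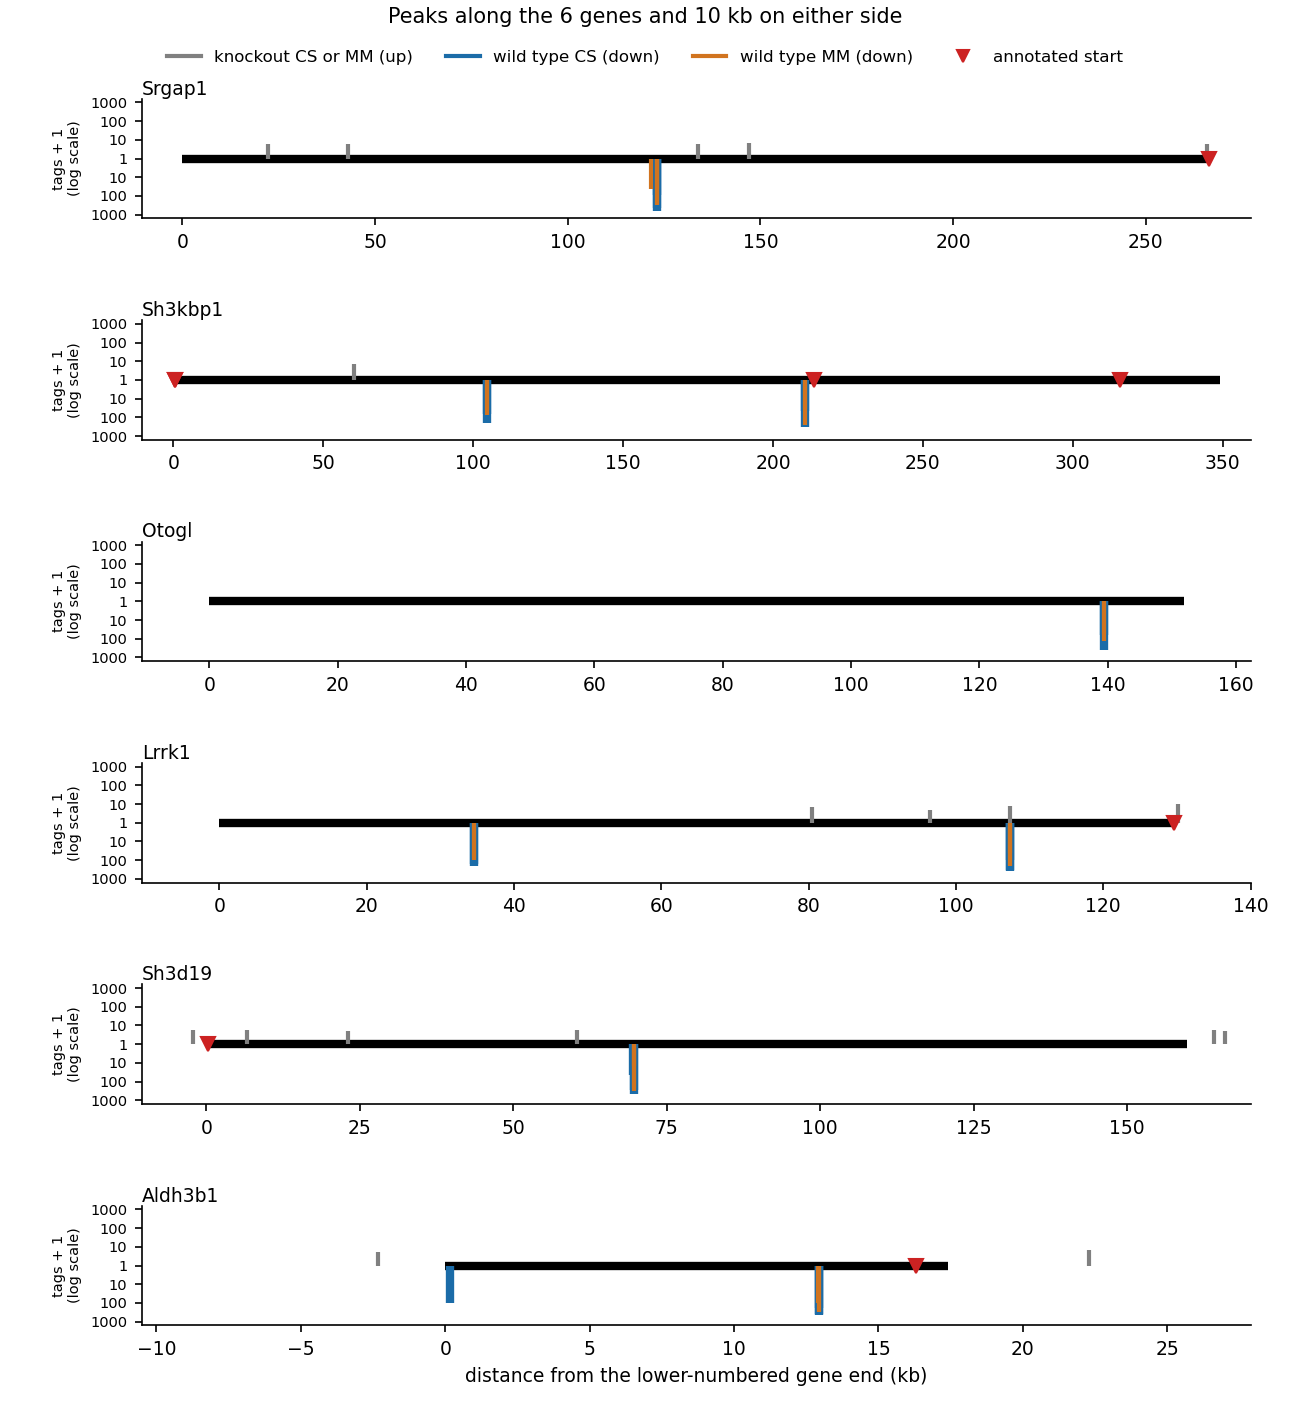
The black bar of each panel is the gene, drawn from its lower-numbered end in kb, with annotated starts as red triangles. Lines up are knockout peaks and lines down wild type peaks (CS blue, MM orange), with length the tags plus 1 on a log scale. The knockout lines are short, at 4 to 9 tags, and lie apart from the wild type lines except at the first site of Lrrk1. Tags cannot be compared between the genotypes, and the overlap expected at other regions was not computed.

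The 6 genes differed in their pattern over the wild type lists. As a measure of likeness, the percentile by tags of the strongest peak of a gene was taken in each of the 6 lists (0 where there is none), and the mean absolute difference over the lists was computed. Srgap1, Lrrk1 and Aldh3b1 differed from one another by 3.10 to 3.96 percentile points. Otogl and Sh3kbp1 differed by 3.84 points. The strongest peak of Sh3kbp1 was at its second site in both 12 min lists and at its first site in both 60 min lists. The pattern of Sh3kbp1 is therefore not that of a single site. Sh3d19 was 14.8 to 17.8 points from the first 3 and 29.5 to 30.2 points from Otogl and Sh3kbp1. The gene pair farthest apart was Aldh3b1 and Sh3kbp1, at 47.8 points.

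The protein-coding genes with the most similar pattern were found by the same measure. For Srgap1 they were Knstrn, a kinetochore protein (1.60 points), and Chordc1, a cochaperone of Hsp90 (1.64). For Aldh3b1 they were Unc93b1 (0, since it is counted with the same peaks within 10 kb) and Serpinh1, the collagen chaperone Hsp47 (0.903). For Sh3kbp1 they were Xirp1, an actin-binding muscle protein (0.923), and Cobl, an actin nucleator (1.39). For Otogl they were Btbd2 (2.57) and Ksr1, a scaffold of the MAP kinase cascade (2.66). For Lrrk1, Capn2, a calpain protease, is given (2.21). For Sh3d19 they were Ahsa1, an activator of Hsp90, and Vipas39, a protein of vesicle sorting, both at 3.46 points because they share 1 region.

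Among regions inside protein-coding genes and over 1 kb from any annotated gene end, called inner regions below, the places of the 6 genes depended on the time and on whether fold or tags was ranked. Inner regions numbered 34 in unheated cells, 510 after 12 min and 1426 after 60 min, which were 28.1%, 36.1% and 41.3% of the shared regions. Each was placed by the mean of its CS and MM ranks. By fold, before heat shock Aldh3b1 was placed 1, Sh3d19 10, Lrrk1 16 and Srgap1 24. At 12 min Srgap1 and Lrrk1 shared place 1, and Sh3d19 was placed 3, Aldh3b1 17, Otogl 88 and Sh3kbp1 131. At 60 min Srgap1 was placed 1, Sh3kbp1 2, Otogl 3 (shared with another region), Sh3d19 9, Lrrk1 14 and Aldh3b1 39. By tags, before heat shock Aldh3b1 was placed 1, Srgap1 3, Lrrk1 4 and Sh3d19 28. At 12 min Srgap1 was placed 2, Aldh3b1 3, Lrrk1 8, Sh3d19 12, Otogl 240 and Sh3kbp1 272 (for its second site, and 367 for its first). At 60 min the places by tags were 5 for Srgap1, 16 for Sh3d19, 20 for Aldh3b1, 42 for Sh3kbp1, 62 for Lrrk1 and 74 for Otogl. Place 1 by fold was held by 1 or more of the 6 genes at each time, and place 1 by tags by Aldh3b1 before heat shock only, so the label of strongest inner sites holds for some of the 6 genes at some times.

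Inner regions of 4 other genes were placed above Srgap1 by the mean of their tag ranks at 60 min, where Srgap1 had 658 CS and 307 MM tags. Cbx7, a Polycomb protein, had 816 CS and 617 MM tags, and Myh9, a nonmuscle myosin heavy chain, had 832 and 485. Rragd, a Rag GTPase, had 567 and 376, and Magi1, a junction scaffold, had 555 and 380, both with fewer CS tags and more MM tags than Srgap1. These 4 were named after their values were seen. Next below Otogl, at 393 and 138, came Ptpa with 359 and 146, Arhgap25 with 266 and 214, and Sdc2, a syndecan, with 305 and 170. Just above Otogl came Col4a2, a collagen chain also named after its values were seen, with 338 and 159. The median inner region at 60 min had 81 CS tags, 40 MM tags and a CS fold of 36.5.

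**Figure D3:**
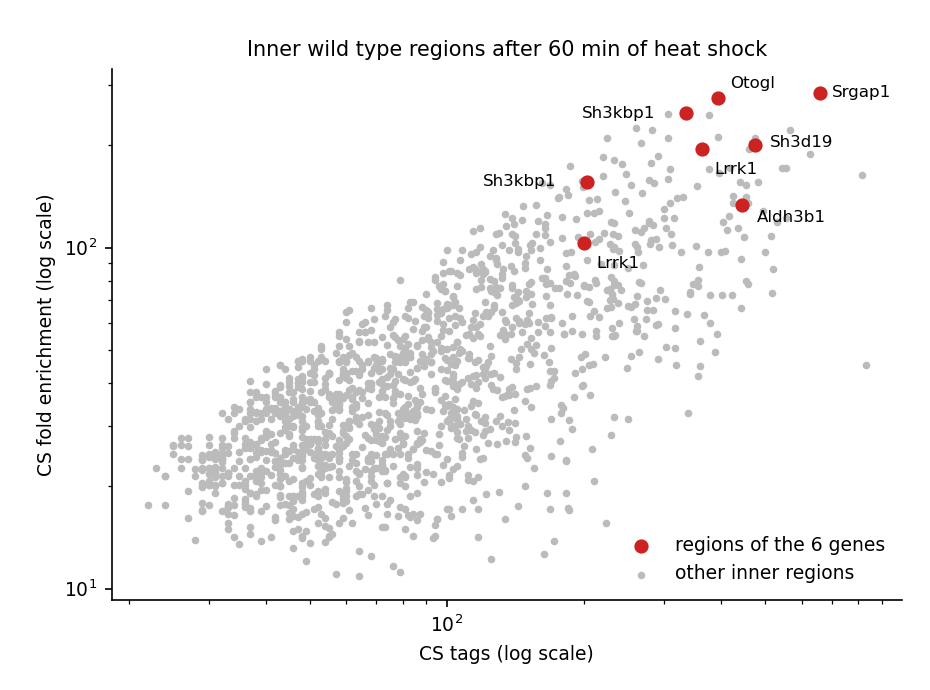
Each point is an inner wild type region after 60 min of heat shock, with its CS tags on the horizontal and its CS fold enrichment on the vertical axis, both on log scales. Red points are the 8 regions of the 6 genes and grey points the other inner regions. Srgap1 and Otogl are highest on the fold axis, at 284 and 274, while grey points at 816 and 832 tags lie to the right of all red points.

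The strongest sites lay at very different distances from the nearest start of any gene in the RefSeq promoter table, which holds no start of Otogl. That of Aldh3b1 was 2590 bp from the start of Gm29846 and that of Sh3kbp1 2875 bp from its own inner start. Those of Lrrk1 and Sh3d19 were 22.2 and 69.3 kb from their own start, and that of Srgap1 was 73.9 kb from the start of Gm51787, a gene within it. That of Otogl was 46.7 kb from the start of Gm29685. Of the 1388 inner regions at 60 min with such a distance, 18.8% were within 5 kb and the median was 22.1 kb.

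The position of the sites was measured closely by the lists. After heat shock the summits of the 4 wild type lists lay within 12 bp of one another at the first site of Sh3kbp1, 14 bp at Srgap1, 15 bp at Aldh3b1 and 21 bp at the first site of Lrrk1. At the second site of Lrrk1 they lay within 19 bp, at Sh3d19 within 37 bp, at Otogl within 38 bp and at the second site of Sh3kbp1 within 46 bp. With the lists before heat shock included, the spread was 98 bp at Srgap1, 101 bp at Lrrk1, 56 bp at Sh3d19 and 32 bp at Aldh3b1. At Srgap1 and Lrrk1 the CS summit before heat shock was the farthest, at 79 and -68 bp from the 60 min CS summit. The fragment length estimated by the peak caller was 40 and 45 bp in the wild type libraries before heat shock and 107 to 161 bp after it, and its part in the spread was not tested.

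**Figure D4:**
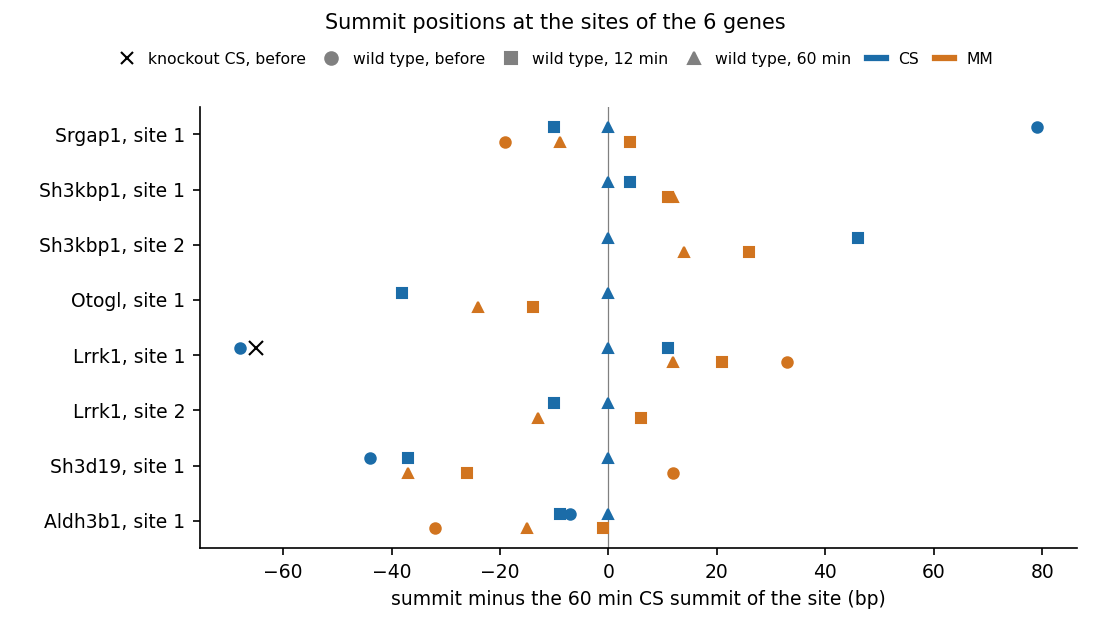
Each row is a site found in more than 1 wild type list, and each symbol the summit of a list relative to the 60 min CS summit, in bp, with CS above MM in a row. A cross is the knockout peak, circles are lists before heat shock, squares 12 min and triangles 60 min. Squares and triangles lie within 46 bp of 0, and circles reach 79 bp at Srgap1 and -68 bp at Lrrk1, where the knockout cross is at -65 bp.

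Sh3kbp1 and Lrrk1 each held 2 inner sites, so the balance between sites could be read within 1 library. The first site of a gene is the one with the most tags in any wild type list. For both genes that was the 60 min CS list, so a share over 50% there was fixed by the numbering. At Sh3kbp1 the first site held 40.4% of the tags of both sites in the 12 min CS list (95% exact interval 31.1% to 50.2%) and 46.8% in the 12 min MM list (35.5% to 58.4%). At 60 min it held 62.3% in CS (58.0% to 66.4%) and 78.9% in MM (74.1% to 83.1%). The first site held under 50% at 12 min, with intervals that include 50%, and over 50% at 60 min, with both antibodies. The intervals of the 2 times did not overlap within an antibody. At Lrrk1 the first site held 67.8% (63.5% to 71.9%) in CS and 73.6% (68.2% to 78.6%) in MM at 12 min, and 64.4% (60.3% to 68.4%) in CS and 63.6% (57.6% to 69.3%) in MM at 60 min. It was the larger site in all 4 lists, in the 60 min CS list by the numbering. The intervals cover counting error only, and the libraries have no replicate by which a shift between times could be judged. Peaks were called anew in each list and differ in length, from 483 to 1117 bp at the first site of Sh3kbp1, which was not corrected for.

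**Figure D5:**
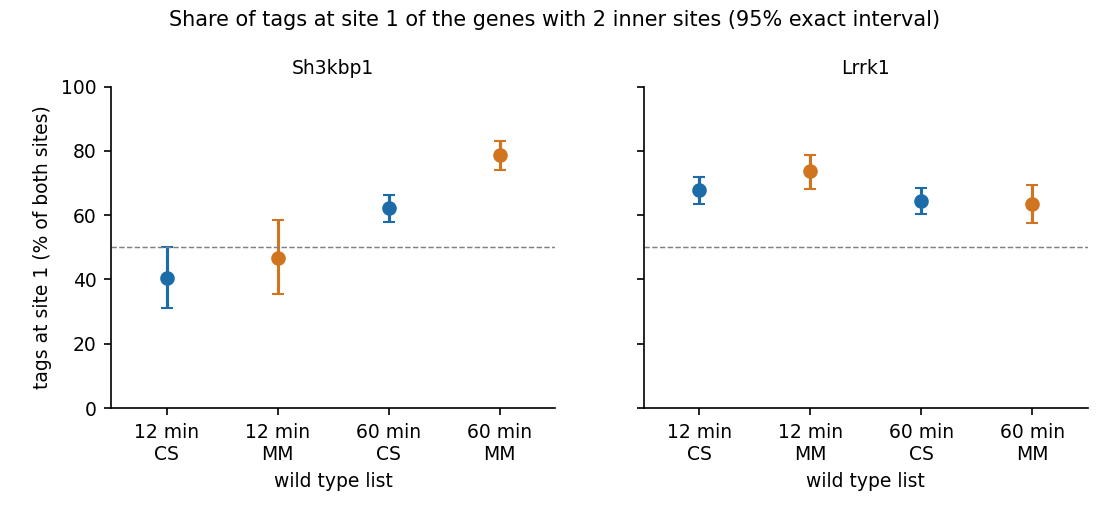
The vertical axis gives the tags at site 1 as a percent of the tags at both sites, and the horizontal axis the 4 wild type lists after heat shock. Points are single lists (CS blue, MM orange), bars are exact 95% intervals for counting error, and the dashed line marks 50%. Site 1 is the site with the most tags in any list, so its share over 50% in the 60 min CS list was fixed by the numbering. Sh3kbp1 lies at 40.4% and 46.8% at 12 min and at 62.3% and 78.9% at 60 min, while Lrrk1 stays between 63.6% and 73.6%.

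The deposited FDR did not follow the score of a peak. The 12 min CS peak of Srgap1 had a score of 1990.66 and an FDR of 14.29%, while that of Otogl had a score of 127.69 and an FDR of 2.77%. Before heat shock the shared regions at the 4 genes that had one carried FDRs of 17.39% to 100%. With peaks limited to an FDR of 5% or less, none of the 6 genes kept a shared region before heat shock. The lowest FDR in the CS list before heat shock was 39.47%, so no gene of any kind could keep one. At 12 min 4 kept one (Sh3kbp1, Otogl, Lrrk1 through its second site, and Aldh3b1), and at 60 min all 6 did. With peaks limited to a score of at least 100, the 4 genes with a region before heat shock became 2 (Srgap1 and Aldh3b1), and no knockout peak was left at any of the 6. The share of all protein-coding genes with a knockout peak at that score was not computed, so nothing is read from its absence here.

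SRF peaks were found at none of the 6 genes, against 0.458% of all protein-coding genes with one. The nearest SRF summit lay 1067 kb from the Aldh3b1 site and 6824 kb or more from the others. The SRF lists held 64, 68 and 18 peaks, so a site below their depth would not be listed.

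Relatives and partners of the 6 proteins were examined as lists of 66 genes. A shared wild type region was present at 2 of them before heat shock (3.03%), at 5 at 12 min (7.58%) and at 9 at 60 min (13.6%), beside 0.532%, 5.33% and 11.2% of all protein-coding genes. Peaks in the knockout lists were found at 47 of the 66, beside 48.0% of all protein-coding genes, and SRF peaks at 0, beside 0.458%. No list was tested, and the relatives were not compared with genes of like length. Among protein-coding genes at least as long as Lrrk1, 75.8% had a knockout peak and 26.9% a shared wild type region at 60 min. Nothing is therefore read from the counts of relatives.

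Among the Srgap, Robo and Slit genes, 2 of 10 had a shared region at 60 min, where 11.2% of all protein-coding genes did. Counts in this and the other short lists are descriptions, and nothing is read from them. Slit3 had 3 such regions, the strongest with 232 CS and 120 MM tags and 3662 bp from a gene end, and Slit1 had 1 with 150 and 100 tags. None of the 4 Robo receptors had one, which is too few genes to set against the Slit genes. Among partners of Sh3kbp1, Sh3gl1, an endophilin, had a region at all 3 times, with 64 CS and 23 MM tags before heat shock, 168 and 130 at 12 min and 275 and 223 at 60 min. Sh3gl3, another endophilin (99 and 51 tags), and Asap1, an Arf GTPase-activating protein (125 and 30), had one at 60 min, which makes 3 of 11.

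Among ADAM proteases and SH3 adaptors, 2 of 10 had a shared region. Sh3pxd2a, the podosome scaffold Tks5, had one before heat shock with 49 CS and 21 MM tags. At 60 min a different region of it was the stronger, with 415 CS and 293 MM tags at chr19:47356001-47357185. That region was not in both lists before heat shock. Adam12, a protease, had 3 regions at 60 min, the strongest with 166 and 70 tags. Among aldehyde dehydrogenases, 2 of 20 had a region at 60 min. Aldh2, the mitochondrial enzyme that clears acetaldehyde, had 186 and 90 tags at 12 min and 279 and 146 at 60 min. Aldh1l1, a folate enzyme, had 29 and 22 tags 8133 bp outside the gene. No shared region was found at any time at the 8 genes of the otogelin list (Otog, Tecta, Tectb, Vwf and mucin genes). None was found at the 7 genes of the Lrrk list (Lrrk2, Vps35, Grb2 and Rab genes). With 11.2% of all protein-coding genes having a region at 60 min, lists this short can hold none, so nothing is read from this.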

How the data were processed

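Per the file headers, the authors used MACS 1.4.2 and a p cutoff of 1e-04 for HSF1 peaks. Wild type libraries merge 2 replicates and were called against IgG, and knockout libraries had no control, per the file headers. SRF peaks came from MACS 2.0.9, per the file headers. Coordinates are in mm10, as the submitters' processing notes name it; the aligner was not given in the sources used here. No label names what CS and MM bind, and the file headers call the experiment an Hsf1 ChIP-seq.

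Each deposited HSF1 peak carries a tag count, a score (minus 10 log10 of p), a fold enrichment (a ratio to background) and, with a control, an FDR in percent. Each deposited SRF peak carries a pileup signal, a fold and -log10 p and q values. These are the authors' values and were used only within a list.

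Peaks were joined to genes of the GRCm38.p6 table (the primary assembly of mm10) with Python 3.11.15, pandas 2.3.3 and numpy 2.4.6, and exact binomial (Clopper-Pearson) intervals came from scipy 1.17.1. The joins were tested on simulated peaks. Tags were ranked within a list, with ties given the best rank. Motifs were searched in promoter windows, a choice made after seeing the files, in place of the peaks. The 6 genes, the gene lists and the alternatives were chosen with earlier results of these data known. Named genes were the 6, listed relatives with a shared wild type region, the 2 most alike genes per member (1 is not reported here), neighbours within 10 kb of a site and the 3 inner regions next below the lowest member by tags; the regions above members by tags and the genes of the nearest starts were named after their values were seen. Wild type replicates were merged before deposit, so no spread between replicates is known. Chromosome 18 is not in the promoter table used here.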

Additional observations from a re-analysis of the deposited data

How the results depend on the processing

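Of 78 alternative values for 24 results, 56 stayed the same and 22 moved. The same meant within 1.5 times the main count or close to the main share. For distances it meant within the fragment length estimated for the 60 min MM list. Members with a shared region before heat shock numbered 2 at a score of 100 or more and 0 at an FDR of 5% or less, where the main count was 4. That 0, and the 0% of all genes given below, were fixed by the CS list before heat shock, whose lowest FDR was 39.47%. Members with a knockout peak numbered 0 at a score of 100 or more, where the main count was 5. The share of all protein-coding genes at that score was not computed, so this is no result about the members. Listed relatives with CS peaks alone numbered 8 at 12 min and 14 at 60 min, where shared regions gave 5 and 9. The share of protein-coding genes with a shared region, 0.532% before heat shock, was 0.264% inside genes only, 0.416% within 5 kb, 0.735% within 20 kb, 0.148% at a score of 100 or more and 0% at an FDR of 5% or less. At 12 min, where the main share was 5.33%, the same settings gave 2.96%, 4.41%, 6.99%, 2.60% and 3.69%, and an overlap of 50% of both peaks gave 5.0%. At 60 min, where the main share was 11.2%, they gave 6.73%, 9.48%, 14.7%, 6.55% and 9.77%, and the overlap of 50% gave 9.52%.

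With 1 list per condition, no library was left out in turn. No paired analysis was possible because the result comes from no test and each condition has a single list. Heat shock elements at the peaks themselves were not run, since no genome of this build was used here. Ranks depend on each list's depth and length, and a site below the depth of a library is not listed.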
